A study of Mus musculus with 96 samples.

Results

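Gdf9 and Bmp15 encode the growth and differentiation factor GDF9 and the bone morphogenetic protein BMP15, which mouse oocytes secrete into the follicle. Both genes were found by their mouse symbol among 55401 gene rows, so the description covers 2 of 55401 genes. They were followed through 96 RNA libraries, each made from 1 oocyte or embryo of mouse strain C57BL/6J, with no gene altered and no treatment. Females had been superovulated with PMSG and hCG and were mated with males of their own strain. There were 8 oocytes and 7 morulae, the morulae of about 84 h. Between them lay embryos timed in hours after fertilization, with 5 each at 0, 2, 8, 10, 12, 14 and 20 h, 8 each at 16 and 36 h, and 2, 3, 9, 10 and 6 for the 4, 6, 18, 22 and 24 h groups. The labels do not say which females the embryos came from, so p-values measure the spread between these libraries only. Embryos of 0 h to 36 h went through cDNA synthesis together, whereas oocytes and morulae were separate batches. Stage and batch cannot be told apart in any comparison with oocytes or morulae. The 4 h and 6 h titles share one numbering series, and among the 16, 18, 20, 22 and 24 h titles some close with a b, whose meaning is not stated.

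GDF9 and BMP15 belong to the TGF-beta family. They are made as propeptides, cleaved by furin-like convertases and released as dimers, and they act on granulosa and cumulus cells through the type II receptor BMPR2 and a type I receptor (TGFBR1 for GDF9, BMPR1B for BMP15). Receptors then phosphorylate SMAD proteins. In mice, loss of Gdf9 stops follicle growth at an early stage, and loss of Bmp15 alone mainly lowers fertility. After ovulation their messages are part of the maternal store that the embryo inherits and clears. Libraries were made with SMART-Seq v4, which primes cDNA on the poly(A) tail, so less message and a shorter tail cannot be told apart. Likewise, in whole-embryo RNA, fewer cells with a message and less message per cell cannot be told apart.

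Gdf9 (ENSMUSG00000018238.6) lies on the forward strand of chromosome 11 at 53431023 to 53437904, and Bmp15 (ENSMUSG00000023279.7) on the reverse strand of chromosome X at 6314107 to 6320721 (GENCODE M21, GRCm38). No annotated gene overlaps either one. The nearest coding gene to Gdf9 is Uqcrq on the other strand, 191 bases away, and the nearest to Bmp15 is Shroom4, 79132 bases away. The kit does not mark strand, so any read from Uqcrq that extended into Gdf9 would be counted with it. Since cDNA was primed on the poly(A) tail, whose length was not measured, the end of each 3′ UTR is shown, 1 window of 30 bases per gene. Capitals mark the poly(A) signal AATAAA, the cytoplasmic polyadenylation element TTTTAT, its variant TTTTCAT and the AU-rich pentamer ATTTA, which in Bmp15 adjoin or overlap one another.
Gdf9, chr11:53437862-53437891, forward strand: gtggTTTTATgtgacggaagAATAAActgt
Bmp15, chrX:6314112-6314141, reverse strand: cttaaagAATAAATTTTCATTTAtgtgtgc

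The motifs were searched on the message strand in the last 300 bases of the longest annotated 3′ UTR, which is 360 bases in Gdf9 and 1523 bases in Bmp15. Gdf9 held AATAAA and TTTTAT, whose first base lies 16 bases before the first base of AATAAA. Among 16572 messages with a window of that length, 69.8% held AATAAA and 29.2% held TTTTAT. Bmp15 held AATAAA and TTTTCAT, which 7.11% of messages held. It also held 2 matches of ATTTA, which 45.3% of messages held. TTTTCAT and TTTTACT were added to the search after the Bmp15 sequence had been seen. Gdf9 held neither TTTTCAT nor ATTTA, and Bmp15 did not hold TTTTAT. Neither window held the longer element TTTTAAT (11.1%), the variant TTTTACT (5.44%), the signal variant ATTAAA (29.8%) or the Pumilio element TGTANATA (9.49%). These are matches of letters, and no binding was measured.

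Gene counts per library ranged from 10378 to 6795311 with a median of 2099222, and the second lowest was 564538. Levels are gene counts scaled to a common library total (CPM), and both genes were at 264 CPM or more in all but 1 library up to 24 h. Counting error of reads was thus small beside the spread between embryos, except for Gdf9 at 4 h. There the SD of 2 libraries was 8.17 CPM, while replicate 1 alone had a 95% Wilson interval of 5179 to 5363 CPM. Replicate 5 of 10 h and replicate 4 of the morulae stood apart. Their median correlation with their own group, over log2(CPM + 1), was 0.122 and 0.423, and that of every other library was at least 0.792. In 10 h replicate 5, 14 cumulus and granulosa markers summed to 13351 CPM, against 85.8 to 922 CPM in the other 4 libraries of 10 h. Hsd3b1 alone gave 8987 CPM in replicate 5. Star, Fshr and Foxl2 were at 0 throughout that hour, and Cyp19a1 and Lhcgr were also at 0 in replicate 5. In this library 9 oocyte markers summed to 29.5 CPM, against 10444 to 11690 CPM in the other 4. It held 40 counts of Gdf9 and 25 counts of Bmp15, that is 7.62 CPM (95% Wilson interval 5.59 to 10.4) and 4.76 CPM (3.23 to 7.03). Morula replicate 4 held only 10378 gene counts, of which 15 were Gdf9 and 11 were Bmp15, or 1445 CPM (876 to 2384) and 1060 CPM (592 to 1897). Its oocyte markers summed to 4336 CPM, against 77.6 to 275 CPM in the other 6 morulae. Wilson intervals cover counting error only, since amplified reads are not independent molecules. Results in which these libraries enter are given with and without them where they change a value that is printed.

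Gdf9 did not pass the test between 0 h embryos and oocytes, whereas Bmp15 was higher in 0 h embryos, at 3211 ± 436 CPM in 0 h embryos and 659.7 ± 102.9 CPM in oocytes (SD, n = 5 and 8). The 5 embryos of 0 h had 3004, 2758, 2962, 3533 and 3799 CPM of Bmp15, and the 8 oocytes had 487 to 850.3 CPM with a median of 654 CPM. Every 0 h embryo lay above every oocyte. The log2 fold change was 2.27 ± 0.12 (SE, adjusted p = 3.8e-13, edgeR quasi-likelihood test with Benjamini-Hochberg adjustment, as for every adjusted p of a gene below). Among 9556 genes tested, 23.3% were called higher and 22.5% lower at 0 h, and 320 genes had a larger increase than Bmp15. Gdf9 had 4673, 4304, 4377, 3594 and 4029 CPM at 0 h, and 3225 to 5677 CPM with a median of 4156 CPM in oocytes. These ranges overlap widely, with a log2 fold change of -0.11 ± 0.12 (adjusted p = 0.51). Cumulus and granulosa markers summed to 33.9 to 725 CPM at 0 h and 88.8 to 1032 CPM in oocytes, with Foxl2 at 0 in both groups, and their part in the result was not tested. Of these sums, Cyp19a1, which was at 0 in 10 h replicate 5, gave 70.3 ± 33.3 CPM at 0 h and 83.6 ± 10.7 CPM in oocytes (SD).

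**Figure D1:**
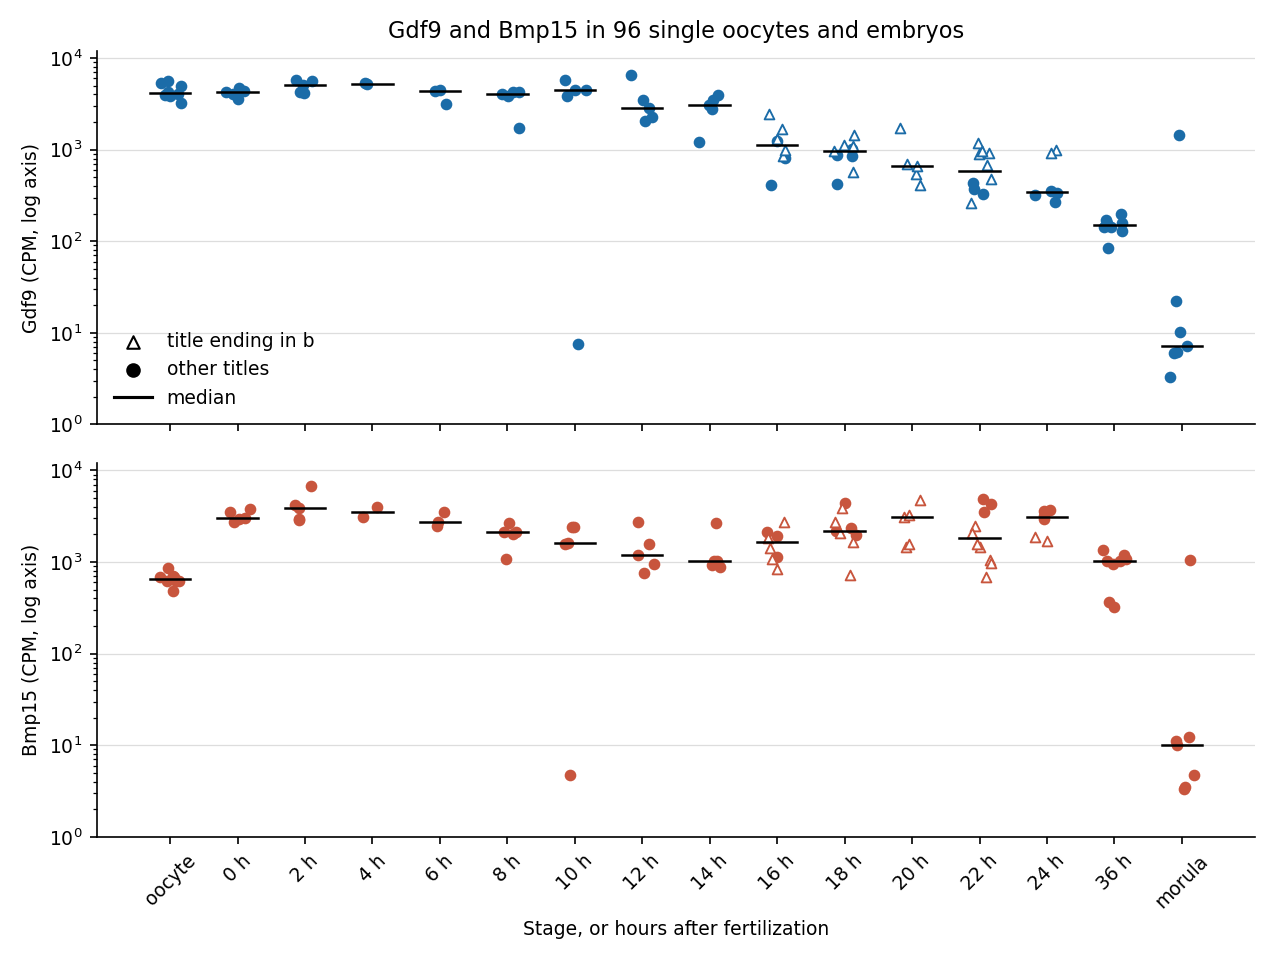
Each point is 1 of 96 libraries, with Gdf9 (upper panel) and Bmp15 (lower panel) in CPM on a log axis against stage or hours after fertilization, triangles for titles ending in b and lines for group medians. Group medians of Gdf9 lie between 4093 and 5265 CPM through 10 h and at 342 CPM by 24 h, whereas the median of Bmp15 is 1023 CPM at 14 h and 3092 CPM at 24 h, and the isolated points at 10 h and in morulae are the libraries that stood apart.

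During the first 12 h the genes took different courses. Bmp15 was lower at 12 h than at 0 h, while Gdf9 did not pass the test. Bmp15 had 1203, 2748, 759, 954 and 1553 CPM at 12 h, each below the lowest 0 h embryo, which replicate 2 of 12 h came close to. Its log2 fold change was -0.91 ± 0.26 (adjusted p = 0.0102), and -0.94 in 1 fit of all 96 libraries, where it did not pass (adjusted p = 0.33). Of 8211 genes tested, 19.7% were called higher and 19.4% lower at 12 h, and 1442 genes fell more than Bmp15, so the fall was common among genes. Gdf9 had 2820, 2071, 2275, 6545 and 3518 CPM at 12 h, with both the highest Gdf9 level of the series and levels below any at 0 h. Its log2 fold change was 0.01 ± 0.27 (adjusted p = 0.98), and -0.39 without 12 h replicate 4. With library sizes alone in place of TMM scaling, the median of all genes moved by more than 0.1, to -0.29, and Gdf9 was at -0.29, equal to that median.

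Between these hours both genes varied from embryo to embryo. At 2 h, Gdf9 had 5578, 4257, 4192, 5702 and 5076 CPM and Bmp15 had 3841, 2860.4, 4209, 2917 and 6708 CPM, so only Bmp15 had a library well above the others. The pair of 4 h embryos had 5270.4 and 5259 CPM of Gdf9 and 3938 and 3096 CPM of Bmp15, and the 6 h embryos had 3142, 4383 and 4436 CPM of Gdf9 and 2465, 2708 and 3488 CPM of Bmp15. At 8 h, replicate 1 was lowest in both genes, with 1720 CPM of Gdf9 beside 4301, 4224, 3894 and 4093 CPM, and 1079 CPM of Bmp15 beside 2675, 2103, 2022 and 2110.3 CPM. The 10 h libraries other than replicate 5 had 3807, 4462, 4515 and 5785 CPM of Gdf9, in reach of any earlier hour, but 2401, 2384, 1562 and 1614 CPM of Bmp15, all below the lowest 0 h embryo.

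At both 12 h and 14 h, the library lowest in Gdf9 was the highest in Bmp15. Replicate 2 of 12 h had 2071 CPM of Gdf9 and 2748 CPM of Bmp15, the bottom and the top of its group. At 14 h the levels of Gdf9 were 3081, 1214, 3523, 3916 and 2751 CPM, and those of Bmp15 were 1039, 2632, 927, 887 and 1023 CPM. Replicate 2 of 14 h was again the lowest in one gene and the highest in the other, and the remaining 4 libraries lay within 887 to 1039 CPM of Bmp15.

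Between 12 h and 24 h Gdf9 fell, while Bmp15 was higher in mean without passing the test. Gdf9 had 318, 351, 333, 268, 981 and 917 CPM at 24 h, all below the lowest 12 h embryo. Its mean was 528 ± 328 CPM at 24 h and 3446 ± 1821 CPM at 12 h (n = 6 and 5). The log2 fold change was -2.90 ± 0.44 (adjusted p = 0.00099), against a median of 0.05 over all genes, and -3.71 without the 24 h titles ending in b (adjusted p = 6.9e-06). Of 11083 genes tested, 8.23% were called lower and 13.4% higher, and 31 genes had a larger decrease than Gdf9. Bmp15 had 2969, 3717, 3582, 3215, 1675 and 1895 CPM at 24 h, and 4 of these 6 lay above every 12 h embryo while the other 2 overlapped with them. At 2842 ± 863 CPM in 24 h and 1444 ± 788 CPM in 12 h embryos, its log2 fold change of 0.81 ± 0.29 missed the threshold (adjusted p = 0.057). It passed with DESeq2 (adjusted p = 0.035), with library sizes alone (0.039), without filtering (0.036), without the titles ending in b (0.0098) and without 12 h replicate 2, where the log2 change was 1.11 (0.0071). It also passed without 24 h replicate 5 (0.026) or 6 (0.042), and over all alternatives the adjusted p ranged from 0.0071 to 0.31.

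In the 2-hour steps neither gene was called in any of 12 intervals by edgeR when the 81 libraries of the embryo cohort were fitted together. At an unadjusted p under 0.05 there was 1 interval for Gdf9 and 0 for Bmp15. That interval was 16 h with 14 h, where Gdf9 had 406, 810, 1245, 1305, 845, 2426, 995 and 1695 CPM at 16 h. Of these 8 libraries, 6 lay at 406 to 1305 CPM, whereas 4 of 5 at 14 h lay at 2751 to 3916 CPM, and the groups overlapped through replicate 2 of 14 h. The log2 fold change was -1.40 ± 0.48 (p = 0.0042, adjusted p = 0.11). It passed at -1.37 when 10 h replicate 5, which belongs to neither hour but enters the shared estimate of spread, was left out (adjusted p = 0.012), and at -1.39 when only the libraries of the pair were fitted (adjusted p = 0.024). Among 18543 genes, 1.47% were called in this interval. The share was 3.05% between 10 and 8 h, 5.25% between 12 and 10 h, 5.21% between 24 and 22 h, 0.00539% between 2 and 0 h and 0% in each of the other 7 intervals, so few genes of any kind were called in these steps. Without 10 h replicate 5 the share was 0% between 10 and 8 h, 0.00548% between 12 and 10 h, 4.98% between 16 and 14 h, 8.36% between 24 and 22 h and at most 0.0932% in the others.

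From 16 h to 22 h the median of Gdf9 over all titles was lower at each hour, while Bmp15 spread widely between embryos. Bmp15 had 834 to 2754 CPM with a median of 1640 CPM in the 16 h embryos. At 18 h, Gdf9 had 421 to 1445 CPM with a median of 973 CPM, and Bmp15 had 723 to 4416 CPM with a median of 2189 CPM. Replicate 2 of 18 h held both the lowest Gdf9 and the highest Bmp15 of its group. At 20 h, Gdf9 had 695, 1740, 546, 665 and 416 CPM, with replicate 2 above the rest, and Bmp15 had 3085, 3230, 1471, 4706 and 1577 CPM. At 22 h, Gdf9 had 264 to 1189 CPM with a median of 582 CPM, and Bmp15 had 683 to 4848 CPM with a median of 1832 CPM. Each of these ranges overlapped with that of the hour before it. The medians pool titles with and without b in unequal shares. With b, the median of Gdf9 was 1305, 1091, 665 and 899 CPM over 16, 18, 20 and 22 h. In the other titles it was 810, 861 and 371 CPM over 16, 18 and 22 h, so neither kind of title fell at each hour.

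**Figure D2:**
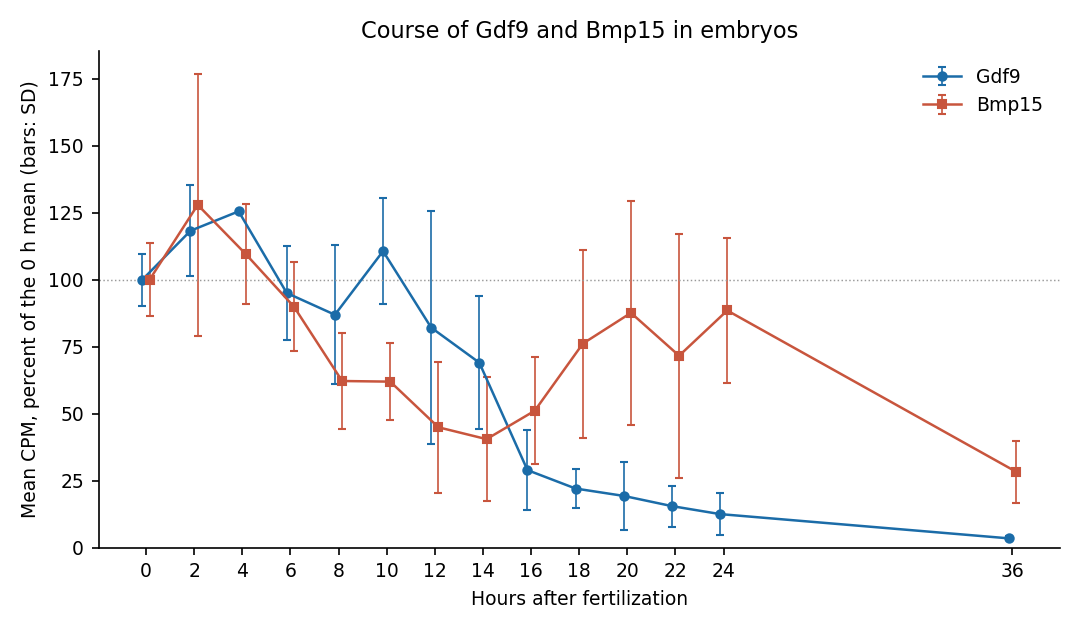
Mean CPM of Gdf9 (circles) and Bmp15 (squares) at each hour after fertilization, as a percentage of the gene's own 0 h mean, with bars for the SD over libraries and 10 h replicate 5 left out. For 14, 16 and 24 h, Gdf9 stands at 69.1, 28.98 and 12.6% and Bmp15 at 40.5, 51.1 and 88.5%.

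On the scale of the 0 h mean, the means of Gdf9 over 2, 6, 8 and 12 h were 118.2, 95.03, 86.9 and 82.1%. The 10 h mean was 110.6% without replicate 5 and 88.6% with it. From 16 h on, every later mean was lower, namely 28.98, 22.1, 19.4, 15.6, 12.6 and 3.53% over 16, 18, 20, 22, 24 and 36 h. The means of Bmp15 over 2, 6, 8, 12 and 14 h were 127.9, 89.9, 62.2, 44.95 and 40.5%, the first including 6708 CPM in replicate 5. Its 10 h mean was 61.98% without replicate 5 and 49.6% with it. Later means did not keep to that descent, with 51.1, 76.2, 87.6, 71.6 and 88.5% over 16, 18, 20, 22 and 24 h and then 28.4% at 36 h. These means mix titles with and without b in unequal shares. At 22 h Bmp15 was at 45.96% in the 7 libraries with b and 131.6% in the other 3, and at 24 h it was at 55.6% in the 2 with b and 104.97% in the other 4. Gdf9 was at 18.4% with b and 8.97% without at 22 h, and at 22.6% with b and 7.57% without at 24 h. With TMM-scaled library sizes, the means over 12, 24 and 36 h were 101.1, 13.5 and 2.96% for Gdf9 and 52.1, 91.2 and 24.3% for Bmp15.

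The ratio of the genes within a library sets aside the scaling of libraries. It is given as log2 of Gdf9 counts over Bmp15 counts, each with 0.5 added. Gene lengths differ, so its sign is not an order of molecule numbers, but differences between stages do not depend on length. In 24 h embryos the log2 ratio was -3.22, -3.41, -3.43, -3.58, -0.77 and -1.05, and in 12 h embryos it was 1.23, -0.41, 1.58, 2.78 and 1.18. The groups did not overlap, and the difference was -3.85 ± 0.74 (SE, two-sided exact permutation test, p = 0.0043, adjusted over 7 comparisons p = 0.0061). At 0 h the ratio was 0.64, 0.64, 0.56, 0.02 and 0.08, against 2.38 to 3.14 with a median of 2.72 in oocytes, a difference of -2.34 ± 0.17 (exact p = 0.00078, the smallest this design allows, adjusted p = 0.0014). At 12 h the mean ratio was 0.88 above that of 0 h (exact p = 0.12, adjusted p = 0.14), and 1.30 above it when 12 h replicate 2 was left out (adjusted p = 0.0093).

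**Figure D3:**
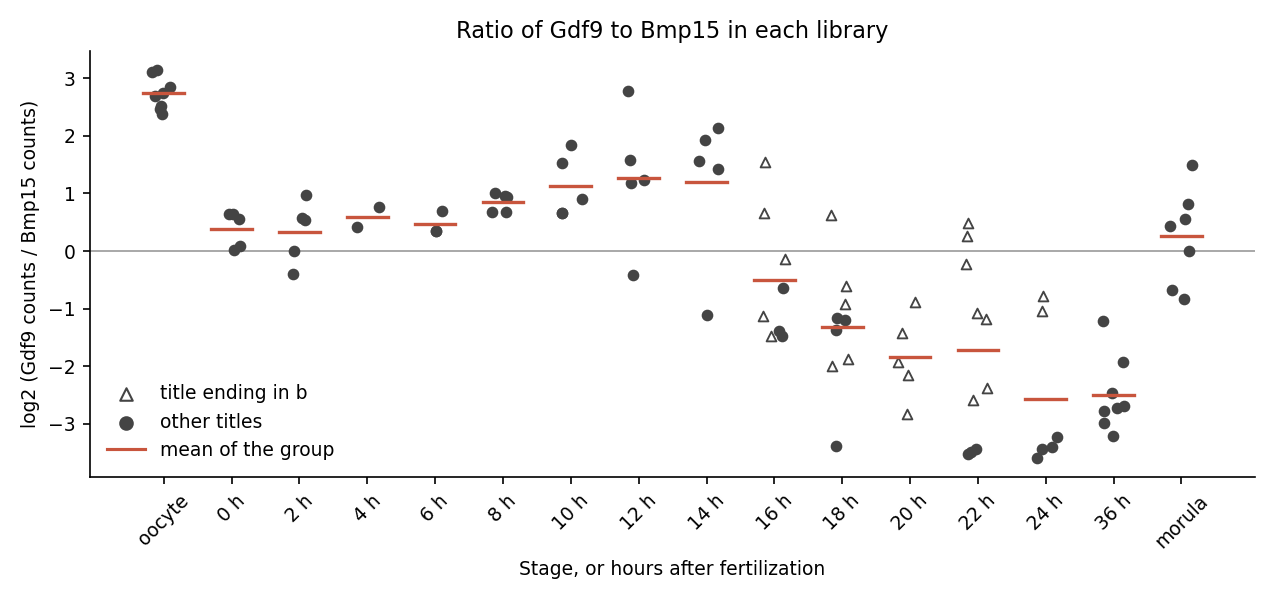
The log2 ratio of Gdf9 to Bmp15 counts in each of 96 libraries by stage or hour, with triangles for titles ending in b, red lines for group means and a grey line at equal counts. Oocytes lie between 2.38 and 3.14, the ratio spreads widely from 12 h to 24 h, and all 8 libraries of 36 h lie below -1.2.

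At 36 h, the last hour of a cohort that the design text ends at late 2-cell, both messages were lower than at 24 h. Gdf9 had 85.3 to 197 CPM with a median of 150.4 CPM at 36 h, and no 24 h embryo was as low. The log2 fold change was -2.10 ± 0.33 (adjusted p = 8.8e-05), and -1.30 without the 24 h titles ending in b (adjusted p = 0.00032). Bmp15 had 323 to 1339 CPM with a median of 1024 CPM at 36 h, again below every 24 h embryo, with a log2 fold change of -1.80 ± 0.33 (adjusted p = 0.00032). Among 12636 genes tested, 23.2% were called lower and 29.1% higher. The difference in log2 ratio between 36 h and 24 h was 0.08 ± 0.58 (exact p = 0.89), an error too wide to show whether the genes fell alike over these hours. The 24 h group mixed titles, with ratios of -3.58 to -3.22 in the 4 without b and -1.05 and -0.77 in the 2 with b. All 36 h titles lacked b, and their ratios of -3.21 to -1.22 lay above the former and below the latter. Among titles without b, Bmp15 thus fell more than Gdf9, with mean ratios of -3.41 at 24 h and -2.50 at 36 h. The nearest values were -3.22 and -3.21, and this split was not tested. The low Bmp15 libraries of 36 h were replicate 1 with 323 CPM and replicate 3 with 369 CPM, and the other 6 lay between 940 and 1339 CPM. Replicate 3 also held 1590 CPM of cumulus and granulosa markers, against 25.4 to 188 CPM in the other 7, while replicate 1 held 29.4 CPM. The part of these markers in the result was not tested.

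Over the whole span of the embryo cohort, Gdf9 fell more than Bmp15. Its mean was 148 ± 32.6 CPM in 36 h and 4196 ± 407 CPM in 0 h embryos (n = 8 and 5), with a log2 fold change of -4.86 ± 0.22 (adjusted p = 1.2e-11). Bmp15 averaged 912 ± 369 CPM in 36 h and 3211 ± 436 CPM in 0 h embryos, with a log2 fold change of -1.82 ± 0.33 (adjusted p = 9.6e-05). Neither gene overlapped between these groups. Of 12105 genes tested, 25.1% were called lower and 39.5% higher, and the median log2 change of all genes was 0.38. Only 41 genes had a larger decrease than Gdf9, and 1460 had a larger decrease than Bmp15. The log2 ratio was -1.92, -2.47, -1.22, -2.70, -2.73, -2.98, -2.78 and -3.21 at 36 h, each below every 0 h value, and the difference in ratio was -2.89 ± 0.27 (exact p = 0.00078, the smallest this design allows, adjusted p = 0.0014). The comparisons of 36 h with 0 h, 12 h with 0 h and 0 h with oocytes share the 0 h embryos.

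**Figure D4:**
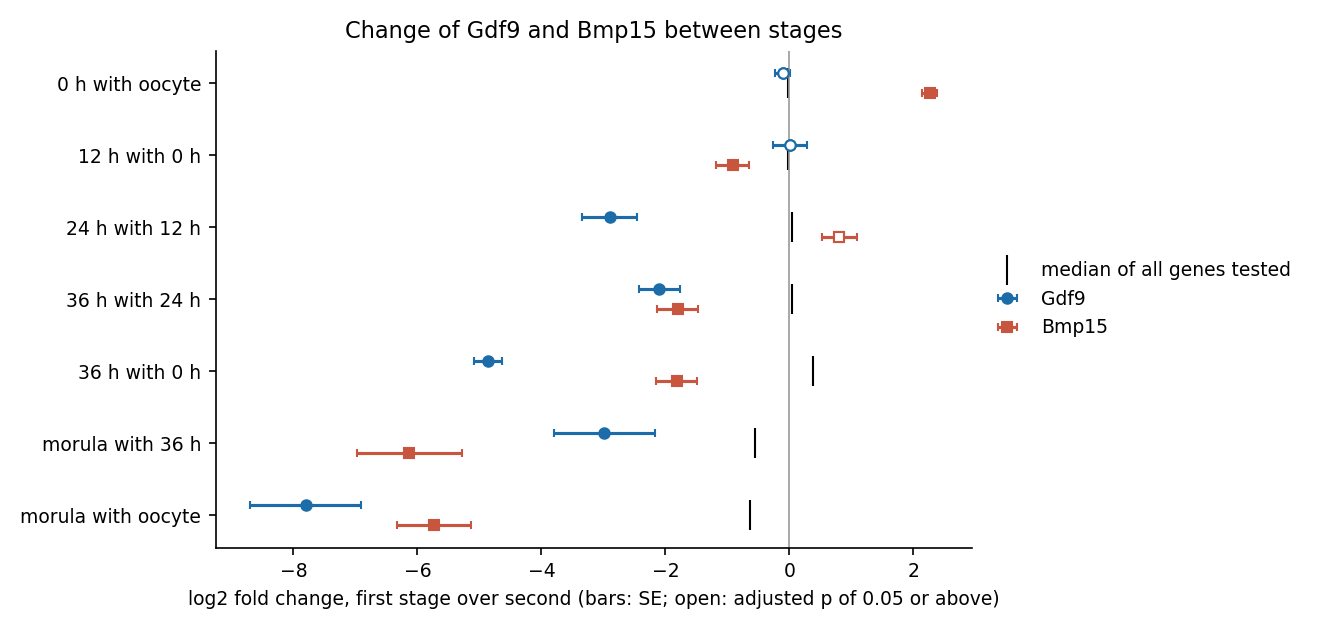
Log2 fold changes of Gdf9 (circles) and Bmp15 (squares), first stage over second, with bars for the SE, open symbols for an adjusted p of 0.05 or above and black ticks for the median of all genes tested. Gdf9 is at -2.90 and Bmp15 at 0.81 for 24 h with 12 h, and Gdf9 is at -4.86 and Bmp15 at -1.82 for 36 h with 0 h.

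In morulae both messages were at low counts, and at low CPM apart from replicate 4. Gdf9 had 3.33 to 22.1 CPM and Bmp15 had 3.33 to 12.4 CPM in the other 6 morulae, from 11 to 29 counts of Gdf9 and 10 to 21 counts of Bmp15 in each. All 6 lay below every 36 h embryo, whereas replicate 4 lay above the 36 h range of Gdf9 and within that of Bmp15. Gdf9 averaged 214 ± 543 CPM in all 7 morulae and 9.17 ± 6.71 CPM without replicate 4, against 148 ± 32.6 CPM at 36 h. Its log2 fold change to 36 h was -2.98 ± 0.81 with all morulae (adjusted p = 0.0025) and -3.77 without replicate 4 (adjusted p = 2.5e-08), but -1.16 with DESeq2 on all morulae (adjusted p = 0.25). Bmp15 averaged 158 ± 398 CPM in all morulae and 7.51 ± 4.09 CPM without replicate 4, against 912 ± 369 CPM at 36 h. Its log2 fold change was -6.13 ± 0.85 (adjusted p = 8.5e-07), -6.75 without replicate 4 (adjusted p = 2.0e-10) and -4.39 with DESeq2 on all morulae (adjusted p = 5.1e-06). Of 11216 genes tested, 43.5% were called lower and 28.2% higher, around a median log2 change of -0.55.

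The ratio was also compared for this last step. In morulae the log2 ratio was -0.67, 0.56, -0.83, 0.43, 0.00, 0.81 and 1.49, all above the 36 h range. The difference was 2.76 ± 0.39 (exact p = 0.00016, adjusted p = 0.00054). With so few counts each morula ratio is coarse, and the counts did not follow depth. Replicate 4 held 15 counts of Gdf9 and 11 of Bmp15 among 10378 gene counts. Replicate 5 held 14 of each among 4202541. Ratios in morulae therefore cannot show whether Bmp15 was reduced more than Gdf9, and the same limit holds for the ratio set against oocytes. Set against oocytes, Gdf9 was at -7.80 ± 0.89 (adjusted p = 2.5e-08) and Bmp15 at -5.73 ± 0.60 (adjusted p = 6.1e-09), or -9.00 and -6.54 without replicate 4. With DESeq2 on all morulae they were at -6.18 and -4.09. Of 9621 genes tested, 49.3% were called lower and 37% higher, around a median of -0.63. The ratio differed by -2.48 ± 0.33 from that in oocytes (exact p = 0.00016, adjusted p = 0.00054), and both p-values are the smallest these designs allow.

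Per kilobase of annotated exon (2031 bases in Gdf9 and 3060 in Bmp15), Gdf9 was the more abundant message in oocytes, at 2174 ± 417 CPM per kilobase, against 216 ± 33.6 for Bmp15. At 0 h the levels were 2066 ± 200.3 CPM per kilobase of Gdf9 and 1049 ± 142 of Bmp15. The order turned later, with 259.9 ± 161 CPM per kilobase of Gdf9 and 929 ± 282 of Bmp15 at 24 h, and 72.9 ± 16.0 of Gdf9 and 298 ± 120.7 of Bmp15 at 36 h. SMART-Seq reads need not cover messages of different length evenly, so these are approximate.

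Ranked by group median in CPM, Gdf9 was highest at 4 h (5265), 2 h (5076), 10 h (4462), 6 h (4383), 0 h (4304), oocytes (4156) and 8 h (4093). These groups were not all alike, since both 4 h libraries (5259 and 5270.4 CPM) lay above every library of 0, 6 and 8 h. Gdf9 was lower at 14 h (3081), 12 h (2820), 16 h (1120), 18 h (973), 20 h (665), 22 h (582), 24 h (342), 36 h (150.4) and in morulae (7.17). Bmp15 was highest at 2 h (3841), 4 h (3517), 24 h (3092), 20 h (3085) and 0 h (3004), followed by 6 h (2708), 18 h (2189), 8 h (2103), 22 h (1832), 16 h (1640), 10 h (1614), 12 h (1203), 36 h (1024), 14 h (1023), oocytes (654) and morulae (9.97). Along each order the ranges of neighbouring groups overlapped, except between 24 h and 36 h for Gdf9 and between 14 h and oocytes for Bmp15. Without morula replicate 4, morulae were also separated, from 36 h for Gdf9 and from oocytes for Bmp15, with medians of 6.67 and 7.37 CPM. Without 10 h replicate 5, the 10 h medians were 4488 CPM of Gdf9, at the same rank, and 1999 CPM of Bmp15, above 22 h and 16 h. The ranking pools titles with and without b. At 22 h the median of Bmp15 was 1448 CPM with b and 4272 CPM in the other titles, where the highest pooled median was 3841 CPM, and at 24 h it was 1785 CPM with b and 3399 CPM in the others.

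Libraries with b in the title did not overlap with the others in Bmp15 at 22 h or in either gene at 24 h, although no test passed. At 24 h the 2 libraries with b had 981 and 917 CPM of Gdf9, against 318, 351, 333 and 268 CPM in the other 4. They had 1675 and 1895 CPM of Bmp15, against 2969, 3717, 3582 and 3215 CPM. Both genes were thus separated, with log2 differences of 1.58 and -0.91. The exact permutation p was 0.067 for each, the smallest that 2 libraries against 4 can give (adjusted over 8 tests p = 0.18). How many of all genes were separated by the letter was not counted, so a separation is not shown to be particular to these genes. At 22 h the 7 libraries with b had 683 to 2502 CPM of Bmp15 with a median of 1448 CPM, against 4272, 4848 and 3555 CPM in the other 3. These did not overlap either, with a log2 difference of -1.63 (exact p = 0.0083, the smallest possible, adjusted p = 0.067). Gdf9 at 22 h overlapped, at 264 to 1189 CPM with b and a median of 899 CPM, against 371, 431 and 328 CPM in the others (exact p = 0.11, adjusted p = 0.22, and 0.048 without 22 h replicate 6).

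At 16 h and 18 h the same contrast gave log2 differences of 0.86 and 0.41 for Gdf9 and -0.20 and -0.42 for Bmp15, with overlapping ranges and adjusted p of 0.23 to 0.64. All 5 libraries of 20 h had titles with b, so that hour allowed no comparison. Markers of the 2-cell stage, 11 genes such as Zscan4d and Zfp352, summed to 63.2 and 57.3 CPM in the b libraries of 24 h and to 2311, 170.5, 261 and 2777 CPM in the others. At 22 h their sums were 41.5 to 237 CPM with b and 49.7 to 124.8 CPM without. Markers of the oocyte, 9 genes that include Zp3 and H1foo, summed to 7688 and 6892 CPM in the b libraries of 24 h and to 3585 to 4935 CPM in the others, and at 22 h to 6204.5 to 9492 CPM with b and 4859.6 to 5149.8 CPM without. The part of the markers, or of what the letter stands for, was not tested.

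**Figure D5:**
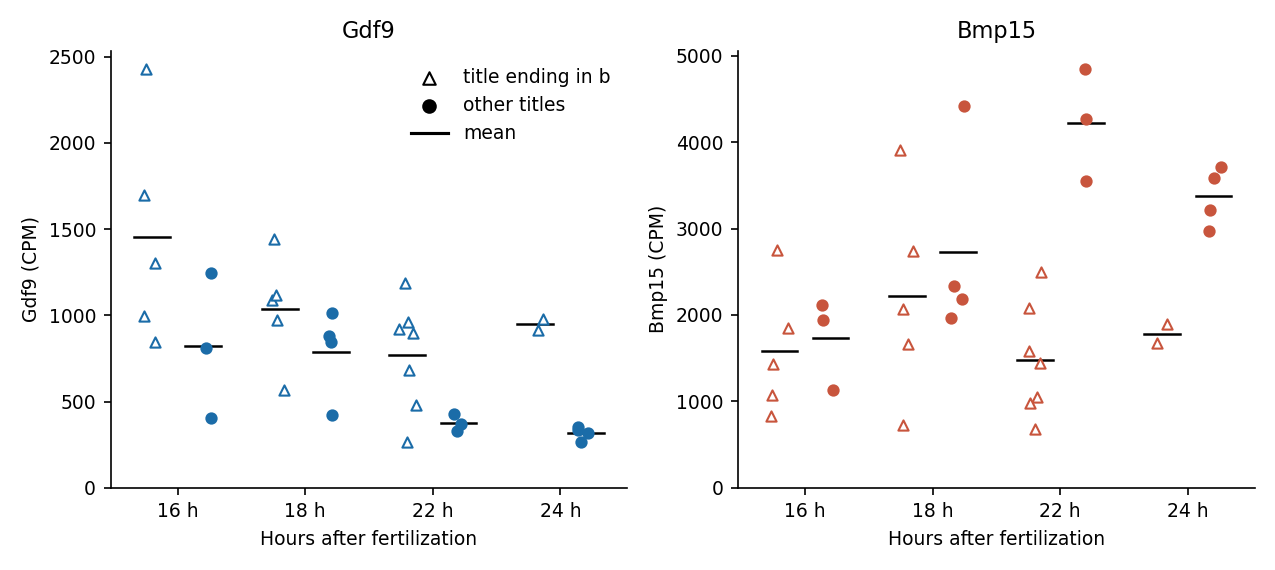
Gdf9 (left) and Bmp15 (right) in CPM at 16, 18, 22 and 24 h, with triangles for titles ending in b, filled circles for other titles and lines for means. At 24 h the b libraries lie at 981 and 917 CPM of Gdf9 against 268 to 351 CPM in the others, and at 1675 and 1895 CPM of Bmp15 against 2969 to 3717 CPM.

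In the 5 sets of libraries that were correlated, the genes were not shown to vary together. Libraries outside these sets were not correlated, among them the 22 h titles without b and the 8, 14 and 24 h groups. At 8 h 1 library was lowest in both genes. At 14 h the library lowest in Gdf9 was highest in Bmp15, and at 24 h titles with b were higher in Gdf9 and lower in Bmp15. Over log2(CPM + 1), Pearson's r was 0.38 in oocytes (n = 8), -0.34 among 16 h embryos (n = 8), -0.41 among 18 h embryos (n = 9), -0.51 in the b libraries of 22 h (n = 7) and 0.59 among 36 h embryos (n = 8). Exact permutation p-values were 0.13 to 0.41, and all 5 adjusted values were 0.41. Spearman's rho was 0.43, -0.52, -0.33, -0.68 and 0.45 in the same order, with exact p of 0.11 to 0.39 and adjusted values of 0.37 to 0.39. Without the 2 libraries farthest from the median of Gdf9, r was 0.03, -0.76, -0.07, -0.38 and -0.19. The value at 36 h thus turned negative without 2 libraries, and on TMM-scaled CPM of all 8 it was 0.80. These 5 correlations were computed after the levels had been seen.

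Across the 16 group means, which share libraries and depth, log2(CPM + 1) of Gdf9 and Bmp15 had r = 0.47, and r = 0.78 without 10 h replicate 5 and morula replicate 4. Among 13249 genes with a mean of at least 10 CPM in some group, the 5 most like Gdf9 were Blvra (biliverdin reductase A, r = 0.985), H1foo (the oocyte linker histone, 0.984), Ggta1 (a galactosyltransferase, 0.978), Lamtor3 (a late endosomal adaptor, 0.977) and Bub1b (a spindle checkpoint kinase, 0.977). Without those 2 libraries only H1foo was still among the 5 (r = 0.987). The others of the 5 were then Mfap2 (a microfibril protein, 0.991), Dclre1a (a DNA repair nuclease, 0.985), Gtf2a1l (a germ cell form of TFIIA, 0.984) and Slc31a2 (a copper transporter, 0.983), while Lamtor3 was at 0.848. H1foo averaged 9710, 4996, 659 and 114.03 CPM over 0, 12, 24 and 36 h, a course with the same order of hours as that of Gdf9. Its early steps differed. H1foo was higher at 0 h than the 6226 CPM of oocytes (log2 0.61 ± 0.11, adjusted p = 6.1e-05). It was lower at 12 h than at 0 h (log2 -0.66 ± 0.23, adjusted p = 0.027), and Gdf9 passed in neither comparison.

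For Bmp15 the 5 were Gpx6 (a glutathione peroxidase, 0.975), Gm7329 (0.965), Camkmt (a calmodulin-lysine methyltransferase, 0.965), F630040K05Rik (0.962) and Arl8a (a lysosomal small GTPase, 0.952). None of them was among the 5 without those 2 libraries, which were Stk32b (a kinase, 0.982), Gm49742 (0.981), Macrod2 (an ADP-ribose hydrolase, 0.981), Smc6 (a subunit of the SMC5/6 complex, 0.978) and Pla2g4c (a phospholipase A2, 0.978), and Gpx6 was at 0.957. Gpx6 averaged 20.6 CPM in oocytes and 139.9, 56.02, 82.4 and 19.9 CPM over 0, 12, 24 and 36 h, and like Bmp15 it was lower at 12 h than at 24 h. The genes most like either growth factor thus depended on 2 libraries.

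Other genes of the pathway were read from lists, with the share of all genes called given above. Of 25 other ligands of the family, 4 were tested for 36 h with 0 h. Tgfb2, a TGF-beta, fell (781 CPM at 36 h and 1475 CPM at 0 h, log2 -0.93 ± 0.26, adjusted p = 0.0047), Bmp5 rose (375 and 169 CPM, log2 1.11 ± 0.25, adjusted p = 0.00075) and Tgfb3 rose (38.0 and 15.3 CPM, log2 1.32 ± 0.42, adjusted p = 0.011), while Bmp6 did not pass (log2 0.14 ± 0.39, adjusted p = 0.77). The median over the 4 was 0.63, beside 0.38 over all genes. At 12 h Bmp5 was already higher than at 0 h, at 363 CPM (log2 1.38 ± 0.18, adjusted p = 1.8e-05). For 0 h with oocytes, 5 of these ligands were tested and 2 fell, Bmp5 (log2 -0.74 ± 0.13, adjusted p = 7.8e-05) and Tgfb2 (log2 -0.49 ± 0.10, adjusted p = 0.00047), and none rose as Bmp15 did.

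Of 14 receptors with a row, 10 were tested for 36 h with 0 h, and 4 fell and 2 rose, with a median of -0.97. Bmpr1b, the type I receptor of BMP15, fell (30.3 CPM at 36 h and 233 CPM at 0 h, log2 -2.97 ± 0.22, adjusted p = 2.7e-09), as did Bmpr2, the shared type II receptor (80.8 and 167 CPM, log2 -1.08 ± 0.21, adjusted p = 0.0002). Tgfbr1, the type I receptor of GDF9, rose (52.4 and 22.8 CPM, log2 1.12 ± 0.35, adjusted p = 0.0093). Of 4 SMAD transducers tested, Smad3 (log2 -2.44 ± 0.29, adjusted p = 9.9e-07) and the common partner Smad4 (log2 -2.39 ± 0.42, adjusted p = 7.4e-05) fell, while Smad1 (log2 -0.55 ± 0.42) and Smad2 (log2 0.40 ± 0.29) did not pass. Of 2 convertases tested, Furin fell (10.3 and 23.4 CPM, log2 -1.29 ± 0.45, adjusted p = 0.017). Among 8 inhibitors 3 rose and 2 fell, with a median of 0.27, led by the decoy receptor Bambi, which rose to 84.0 CPM at 36 h, against 0.541 CPM at 0 h (adjusted p = 6.7e-09).

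Oocyte transcription factors, among them Nobox, which is known to activate oocyte genes in mice, were tested in 5 of 8 cases for 36 h with 0 h. Of these, Nr6a1, Lhx8, Foxo3 and Nobox fell, and Taf4b, a TFIID subunit, rose (log2 1.41 ± 0.30, adjusted p = 0.00044), with a median of -0.87. For 24 h with 12 h, 2 of 6 rose, Nobox (193 CPM in 24 h and 60.98 CPM in 12 h embryos, log2 1.52 ± 0.34, adjusted p = 0.0071) and Lhx8 (83.04 and 30.3 CPM, log2 1.29 ± 0.28, adjusted p = 0.0057), and none fell. Both fell for 36 h with 24 h, Nobox at log2 -2.56 ± 0.37 (adjusted p = 4.2e-05) and Lhx8 at -2.37 ± 0.27 (adjusted p = 6.5e-06).

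Messages of secreted and surface proteins of the oocyte are listed next, since Bmp15 codes for such a protein too. For 0 h with oocytes, 7 of 10 tested rose and 1 fell, with a median of 1.26 beside -0.02 over all genes. Examples are the zona protein Zp3 (567 CPM at 0 h and 68.97 CPM in oocytes, log2 3.00 ± 0.18, adjusted p = 2.0e-11) and the egg protease Astl (log2 2.08 ± 0.11, adjusted p = 6.2e-13). For 12 h with 0 h, 7 of 10 fell and none rose, with a median of -1.31, Zp3 at -2.09 ± 0.28 (adjusted p = 1.7e-05) and Astl at -1.80 ± 0.30 (adjusted p = 0.00017). For 24 h with 12 h, 2 of 11 rose and 4 fell, with a median of -0.04. Izumo1r was among those that rose (log2 1.31 ± 0.27, adjusted p = 0.0045), and Zp3 was among those that fell (log2 -1.34 ± 0.36, adjusted p = 0.016). At 36 h 9 of 10 were lower than at 0 h and none was higher, with a median of -2.47. The rise at 0 h was not particular to this list. Of 9 oocyte markers, some of them on both lists, 7 rose and none fell for 0 h with oocytes, with a median of 1.74. Mos (log2 3.05 ± 0.25), Nlrp5 (log2 2.50 ± 0.14) and Ooep (log2 1.74 ± 0.14), which are only among the markers, were among those that rose. For 24 h with 12 h, 4 of the 9 markers fell and 1 rose, which was Ooep (log2 1.12 ± 0.35, adjusted p = 0.033). In that comparison Ooep falls outside the rule for named genes and is given to complete the count.

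Cumulus genes that GDF9 and BMP15 are known to regulate, such as Has2, Ptx3 and Tnfaip6, formed another list, although the labels say that cumulus cells had been removed with hyaluronidase. Of 12, 5 were tested for 36 h with 0 h. Tnfaip6, a matrix protein of the expanding cumulus, fell (12.6 ± 8.44 CPM at 36 h and 80.6 ± 142 CPM at 0 h, SD, log2 -2.64 ± 0.99, adjusted p = 0.029). The glycolytic genes Ldha (86.1 ± 77.7 and 7.75 ± 8.88 CPM, log2 3.38 ± 0.65, adjusted p = 0.00018) and Pfkp (36.0 ± 52.5 and 2.52 ± 2.20 CPM, log2 3.64 ± 0.85, adjusted p = 0.0011) rose. The SD was above the mean for Tnfaip6 and Ldha at 0 h and for Pfkp at 36 h, so libraries contributed unevenly. The median log2 change of the list was -0.65. Of 4 cumulus and granulosa markers tested in that comparison, 2 fell and 1 rose. The one that rose was Cyp11a1, whose 36 h level of 87.6 ± 183 CPM (SD) was also uneven between libraries. All 14 such markers summed to 25.4 to 1590 CPM at 36 h and 33.9 to 725 CPM at 0 h. Set against 36 h, in morulae 4 of 5 other ligands, 4 of 8 receptors, 3 of 4 SMADs, 6 of 7 inhibitors and 7 of 9 oocyte proteins fell, beside the 43.5% of all genes called lower. In each of the first, second and last of these lists 1 gene rose: the ligand Gdf3 (8.8 CPM in morulae and 2.57 CPM at 36 h, log2 2.20 ± 0.73, adjusted p = 0.0093), the nodal co-receptor Tdgf1 (159 CPM in morulae and 0.951 CPM at 36 h, adjusted p = 1.9e-09) and the tetraspanin Cd9 (1085 CPM in morulae and 192 CPM at 36 h, log2 2.74 ± 0.39, adjusted p = 1.3e-06). Gdf3 falls outside the rule for named genes and was chosen after its values were seen, to complete the count. Without morula replicate 4, the counts that fell were 4 of 6, 4 of 8, 3 of 6, 5 of 8 and 7 of 9, and 42.3% of all genes were called lower. In the same order of lists, 2, 2, 0, 1 and 1 then rose, beside 30.5% of all genes called higher.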

How the data were processed

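The authors deposited 1 table of expected counts for genes and repeat families. Of the non-zero gene values, 28.4% were not whole (tolerance 1e-06), so reads were shared between features. Per the submitters' processing notes, Trimmomatic 0.39, STAR and featureCounts were used with mm10; the annotation release and use of strand are not given in the sources used here. Per the labels' protocols, each oocyte or embryo gave 1 SMART-Seq v4 cDNA, tagmented by Nextera XT. Symbols and coordinates came from GENCODE M21, matched without version for 55141 of 55401 gene rows; 873 repeat rows were left out of totals.

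Groups followed the hour or stage in the labels. Levels are CPM of unscaled expected counts. For tests, counts were rounded and fitted in edgeR 4.0.16 (R 4.3.3: filterByExpr, TMM, robust quasi-likelihood F test, two-sided, Benjamini-Hochberg over all genes tested, threshold 0.05), with the 2 groups of each of 7 stage comparisons, and 1 fit of 81 libraries for 12 intervals. The design had assumed whole counts. Within-library ratios and title suffixes were compared by two-sided exact permutation tests. Fits were tested on simulated data. Alternatives were DESeq2 1.42.0, unscaled libraries, no filter, 1 fit of 96 libraries, leaving out libraries, and a block by title number. Named genes were, per list and comparison, up to 4 called genes with the smallest adjusted p and at least 10 CPM in either group. The genes and lists were chosen with earlier results of these data known. Gene totals were 564538 or more in all but 1 library. This put counting error of reads below the spread between embryos for levels above about 100 CPM, except for Gdf9 at 4 h.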

Additional observations from a re-analysis of the deposited data

Results flagged for a closer look

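In 42 sets of values (Gdf9, Bmp15 and their log2 ratio in each group of 4 to 10 libraries), 6 values lay far from the rest of their group by Dixon's criterion, which chance alone meets in about 1 of 20 groups. Gdf9 was 1720 CPM in 8 h replicate 1, below the other 4 at 3894 to 4301 CPM, and that library was also lowest in Bmp15 at 1079 CPM. Gdf9 was 1740 CPM in 20 h replicate 2, above the other 4 at 416 to 695 CPM, while its Bmp15 of 3230 CPM was inside the range of the group. Morula replicate 4 stood out in both genes, at 1445 CPM of Gdf9 and 1060 CPM of Bmp15. Replicate 2 of 14 h stood out at 2632 CPM of Bmp15 and at a log2 ratio of -1.12, where the other 4 libraries had 1.43 to 2.14. The 7.62 CPM of Gdf9 in 10 h replicate 5 did not meet the criterion, beside 3807 to 5785 CPM in the other 4.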

How the results depend on the processing

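Of 248 alternative values for the 14 stage changes, 232 kept their direction and their side of the threshold, as did 98 for the ratios, where 7 did not, and 80 of 82 for the title suffix. Bmp15 at 12 h with 0 h was -0.94 in 1 fit of 96 libraries, where it no longer passed (adjusted p = 0.33). Gdf9 at 12 h with 0 h, never called, turned to -0.29 with library sizes alone and to -0.14 with a replicate block by title number, and leaving out 1 library gave -0.39 to 0.17. Bmp15 at 24 h with 12 h passed at 0.99 with library sizes alone, 0.82 with DESeq2, 0.86 without a filter, 1.02 without titles ending in b and 0.95 with the replicate block, and leaving out 1 library gave 0.65 to 1.11. Gdf9 in morulae with 36 h was -1.16 with DESeq2 and no longer passed. The number of intervals called for Gdf9 was 1 with the 2 groups alone and 0 to 1 when leaving out 1 library. The ratio of 12 h with 0 h ranged from 0.51 to 1.30 when leaving out 1 library, and that of 36 h with 24 h from -0.13 to 0.44. Between title suffixes, leaving out 1 library gave 0.77 to 1.14 for Gdf9 at 22 h and -0.48 to 0.00084 for Bmp15 at 16 h. The correlation at 36 h was -0.19 without 2 libraries and 0.80 on TMM-scaled CPM of all. The cause of these shifts was not tested. Title numbers did not pair the libraries: deviations of same-numbered libraries correlated at -0.13 to 0.153, and the replicate block, fitted to 12 h with 0 h, 24 h with 12 h and 36 h with 0 h, changed no other call. The count of genes called moved by over 1.5 times in 1 fit of 96 libraries, to 1601 from the 4371 of 0 h with oocytes, 1672 from 3206 of 12 h with 0 h, 13219 from 8045 of morulae with 36 h and 13876 from 8306 of morulae with oocytes. Without a filter it was 16826 for morulae with 36 h and 17913 for morulae with oocytes, and without titles ending in b it was 4068, against 2397, for 24 h with 12 h.

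Precision is limited by the 2 libraries of 4 h, by counts of 10 to 29 per gene in morulae, and by the spread between embryos of 1 hour.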
